A study of Mus musculus with 27 samples.

Results

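FOLFOX, a combination chemotherapy of folinic acid, fluorouracil and oxaliplatin, was compared with no further treatment in the colon of mice that carried inflammation-associated neoplasia. Wild-type BALB/c mice had received azoxymethane, a carcinogen that acts on the colon, and dextran sulfate sodium, an irritant of the colonic lining (AOM/DSS). Those of CAC, the untreated neoplasia group, were then given normal saline by intraperitoneal injection and by gavage (n = 5), and those of CAC_F received FOLFOX by injection with saline by gavage (n = 5). AOM/DSS and gavage are thus shared by both groups, and the injected agent differs. Ages and doses were not given in the sources used here. RNA came from a tumor-bearing segment of colon, taken 1 week after chemotherapy began, so each library mixes neoplastic epithelium, non-neoplastic mucosa and gut wall in proportions that the labels do not give. These 10 libraries are 10 of 27 in the series, and the comparison covers the 15080 of 39971 genes whose FPKM (fragments scaled to gene length and library depth) reached 1 or more in 5 or more of all 27 libraries. Levels are given as CPM, counts relative to the scaled library size, and a gene is said to have risen or fallen where its adjusted p was below 0.05 (quasi-likelihood test of edgeR, Benjamini-Hochberg over the 15080 genes).

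Fluorouracil is turned into nucleotides that block thymidylate synthase and enter RNA and DNA, and folinic acid strengthens that block. Oxaliplatin forms adducts with DNA. Both stall replication forks, activate the p53 protein and kill dividing cells, and the crypts of the intestine, whose stem and progenitor cells divide all the time, are a known site of injury. After such injury the intestinal epithelium is known to pass through a regenerative state, in which crypts refill while mature absorptive and secretory cells are few.

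Many genes of DNA replication carry sites for E2F factors, which switch on S phase, close to their start, and several chemokine genes carry sites for NF-kB, a factor of inflammation. Of the 40 replication and S phase genes tested, 34 had a promoter in the RefSeq table of build GRCm38.p6 (250 bases before to 50 after the start). The E2F motif, searched as TTTGGCGC, TTTCCCGC or TTTCGCGC on both strands, was in 15 of these 34 (44.1%), against 398 of the 10305 promoters of all genes tested (3.86%). The promoters of Mcm6, Mcm5 and Cdc6, which belong to the machinery that opens origins of replication, are shown as examples. Mcm6 and Mcm5 were chosen after their values and matches were seen. Each is printed 5′ to 3′ on the gene's strand over the 200 bases before the start, at chr1:128359706-128359905 (minus strand), chr8:75109309-75109508 (plus) and chr11:98907951-98908150 (plus), with the motif in capitals.
Mcm6: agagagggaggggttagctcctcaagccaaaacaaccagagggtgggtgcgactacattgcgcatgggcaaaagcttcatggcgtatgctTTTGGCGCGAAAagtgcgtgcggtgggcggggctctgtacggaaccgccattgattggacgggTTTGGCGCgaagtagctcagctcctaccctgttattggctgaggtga
Mcm5: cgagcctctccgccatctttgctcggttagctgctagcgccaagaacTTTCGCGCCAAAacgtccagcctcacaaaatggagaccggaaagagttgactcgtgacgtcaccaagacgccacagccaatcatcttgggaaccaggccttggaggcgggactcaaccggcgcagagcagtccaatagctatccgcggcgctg
Cdc6: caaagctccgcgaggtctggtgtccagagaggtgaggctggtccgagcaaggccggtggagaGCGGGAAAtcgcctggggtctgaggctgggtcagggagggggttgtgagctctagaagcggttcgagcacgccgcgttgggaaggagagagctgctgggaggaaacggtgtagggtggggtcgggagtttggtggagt
The runs of 12 capitals in Mcm6 and Mcm5 each hold 2 overlapping matches on opposite strands, and the shorter run of Mcm6 is a further match. The NF-kB motif, searched on both strands as GGGA, any base and TTTCC, was in 4 of 18 promoters of inflammatory cytokine and chemokine genes (22.2%), against 60 of the 10305 (0.582%). It lay in those of Cxcl1, Cxcl2 and Il6, printed in the same way from chr5:90891045-90891244, chr5:90903699-90903898 and chr5:30012914-30013113 (all plus strand), and in that of Csf1.
Cxcl1: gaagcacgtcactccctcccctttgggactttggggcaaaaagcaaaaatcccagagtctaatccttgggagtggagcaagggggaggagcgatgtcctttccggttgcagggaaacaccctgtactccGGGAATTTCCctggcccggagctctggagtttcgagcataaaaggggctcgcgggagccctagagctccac
Cxcl2: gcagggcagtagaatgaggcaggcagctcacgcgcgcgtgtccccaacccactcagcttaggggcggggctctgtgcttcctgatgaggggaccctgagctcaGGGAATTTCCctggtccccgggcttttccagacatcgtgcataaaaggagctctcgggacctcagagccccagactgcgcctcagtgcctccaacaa
Il6: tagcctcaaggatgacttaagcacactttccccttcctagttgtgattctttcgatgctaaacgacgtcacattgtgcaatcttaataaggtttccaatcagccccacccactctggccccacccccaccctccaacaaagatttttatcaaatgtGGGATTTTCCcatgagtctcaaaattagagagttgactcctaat
A further motif, the antioxidant element (TGAC, any 3 bases and GCA), was in 2 of 18 promoters of a list of antioxidant genes (11.1%). It was also in 2 of 18 promoters of the cytokine and chemokine genes, against 335 of the 10305 (3.25%). The sequences printed are a description of the letters in these windows, and binding was not measured. The levels of these 6 genes stand with their groups below.

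Total counts were 56687812 to 71260166 in CAC and 61433532 to 77206403 in CAC_F, so depth overlapped between the groups. The mitochondrial genome took 5.44% to 11.7% of counts in CAC and 4.01% to 5.33% in CAC_F. On the first principal component of the 500 most variable genes (64.6% of their variance) the groups did not overlap, at -33.1 to -10.2 in CAC and 13.7 to 45.1 in CAC_F. CAC replicate 2 stood apart within its group, at -10.2 where the other CAC libraries lay between -33.1 and -28.2. It held 96.9 CPM of Hoxb13, a gene of the most distal colon, against 0 to 0.214 in the other CAC libraries. Its Osr2, a gene of more proximal segments, was at 0.465 CPM against 105 to 143. Hoxb13 reached at most 5.60 CPM in CAC_F and Osr2 lay between 5.03 and 35.0 CPM there, and neither gene was called. In CAC_F, replicates 1 and 2 stood apart in inflammatory genes. A smooth muscle list of 14 genes, which marks gut wall in the sample, had a mean log2 CPM of 7.21 to 9.12 in CAC and 6.36 to 7.00 in CAC_F, with no overlap, and 11 of the 14 fell (7 without CAC replicate 5). Its part in other results was not tested beyond a fit that holds its mean as a covariate, whose counts are given where a list count above 5 moved by more than 1.5 times. Of the 183 called genes named here, 16 lost the call in that fit and 19 lost it without CAC_F replicates 1 and 2. As the smooth muscle means of the groups did not overlap, the covariate fit cannot tell gut wall content from treatment. In such tissue, fewer cells of a type and less RNA per cell cannot be told apart.

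The change was broad and nearly balanced. Of the 15080 genes 2861 rose (19.0%) and 3041 fell (20.2%), and 817 rose (5.42%) and 960 fell (6.37%) by at least 2-fold. Steeper steps were taken by more rising than falling genes, 270 against 230 at 4-fold, 131 against 85 at 8-fold and 33 against 23 at 32-fold. These steps depend on the filter, which genes near 0 CPM in CAC could pass only through libraries of other groups. They were not recounted without CAC_F replicates 1 and 2. The median log2 fold change was 0.68 among rising genes, -0.71 among falling genes and -0.03 over all. In 10.9% of genes every CAC_F library lay above every CAC library, and in 9.88% below. On log2(FPKM + 1) with limma the split of calls leaned to the higher side, 3374 against 2339, and on log2(FPKM + 0.1) 3350 against 2340. Without CAC replicate 2 the counts were 3130 rising and 2972 falling, and without CAC_F replicates 1 and 2 together 2273 rising and 1726 falling.

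**Figure D1:**
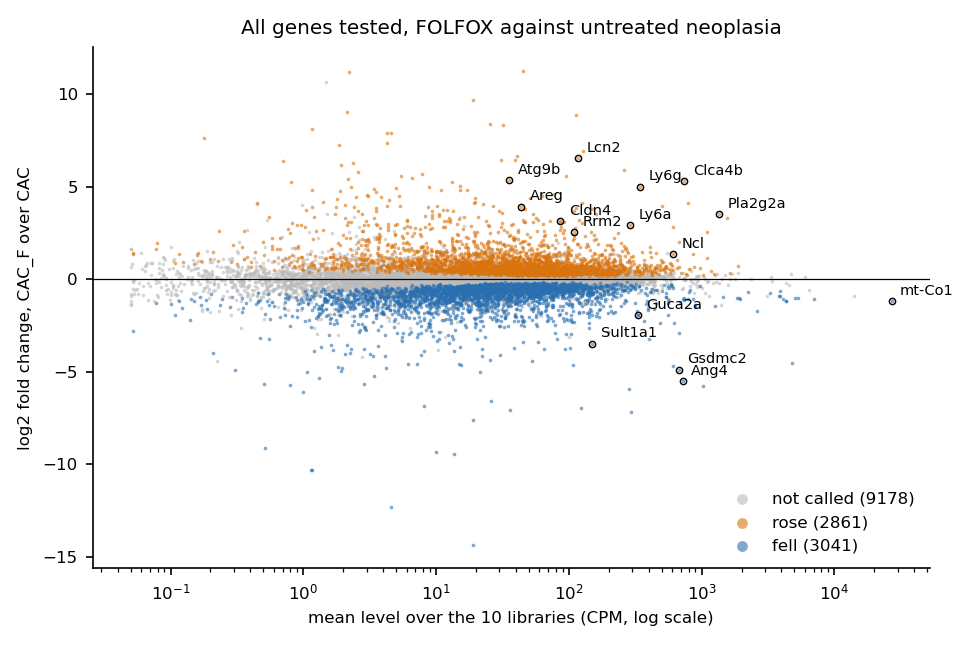
Log2 fold change of CAC_F over CAC for each of the 15080 genes (vertical axis) by its mean level over the 10 libraries in CPM (horizontal, log scale). Orange points are the 2861 genes that rose, blue points the 3041 that fell and grey points the rest, and the labelled genes are described in the text.

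The best separated of the well measured rising genes came from several processes. Smox, the spermine oxidase that breaks down polyamines, was at 32.1, 36.1, 33.5, 26.2 and 36.0 CPM in CAC replicates 1 to 5 and at 94.2, 90.3, 74.0, 67.5 and 70.6 CPM in those of CAC_F. Every treated library exceeded every untreated one, and the rise was 1.27 ± 0.15 on the log2 scale (± SE; adjusted p = 1.43e-05, edgeR). S100a11, a calcium-binding protein of epithelial and stromal cells, was at 97.6, 162, 76.2, 65.7 and 93.9 CPM in CAC and 432, 406, 306, 367 and 446 CPM in CAC_F. Its groups were also separate, with CAC_F replicate 3 the lowest of the treated ones, and it rose by 1.98 ± 0.22. Atg9b, a membrane protein of autophagy, moved from a low level, 0.930, 3.50, 1.23, 1.20 and 1.67 CPM, to 48.5, 85.5, 58.4, 52.9 and 102 CPM, a rise of 5.34 ± 0.61. Others of this set were Slc39a10, a zinc importer (1.84 ± 0.20), the desmosome linker Ppl (1.79 ± 0.19), the lysosomal enzyme Gusb (1.33 ± 0.16), the nucleotidase Nt5c2 (1.09 ± 0.13) and Lpcat4, an enzyme of phospholipid remodelling (1.78 ± 0.20). Gusb is often used as a reference gene, and of 19 such genes 7 rose (4 with the smooth muscle covariate) and 3 fell, the latter count 0 to 1 without CAC replicate 3 or CAC_F replicate 1, 2, 4 or 5.

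Dnajb9 was among the best separated of the falling genes. This chaperone of the endoplasmic reticulum was at 68.9, 61.8, 85.2, 82.0 and 72.0 CPM in CAC and 48.9, 34.9, 33.7, 45.6 and 35.1 CPM in CAC_F. All treated libraries were below all untreated ones, and the log2 fold change was -0.90 ± 0.11 (adjusted p = 2.35e-05, edgeR). Naaa, which hydrolyses N-acylethanolamine lipids, fell by 1.24 ± 0.16 and the Golgi proteins Tvp23b and Stx5a by 1.18 ± 0.14 and 0.63 ± 0.088 on the log2 scale. The largest shifts in FPKM were of another kind. Pla2g2a, a secreted antibacterial phospholipase, went from 226 ± 232 to 2554 ± 1162 FPKM (SD, n = 5 each), Gpx2, a glutathione peroxidase of the gut epithelium, from 93.6 ± 58.2 to 570.4 ± 82.3 FPKM, and the mitochondrial gene mt-Co1 from 21669.7 ± 7446 to 10229.6 ± 1446 FPKM.

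Genes that make deoxynucleotides, the supply line that fluorouracil attacks, rose in 14 of 24 and fell in 1, with a median log2 fold change of 0.44 where that of all genes was -0.03. Rrm2, the regulated subunit of ribonucleotide reductase (ENSMUSG00000020649; chromosome 12, 24758240 to 24764145 in the deposited table, of a build that was not given), was at 35.8, 61.1, 29.8, 15.9 and 20.0 CPM in CAC and 189, 187, 183, 171 and 208 CPM in CAC_F. The 5 treated libraries were close to each other and all above the highest untreated one, CAC replicate 2, and the rise was 2.53 ± 0.44 (adjusted p = 0.000189, edgeR). Its partner Rrm1 rose by 1.10 ± 0.24, the deoxycytidylate deaminase Dctd, which feeds the synthesis of thymidylate, by 1.39 ± 0.28 and the folate carrier Slc19a1 by 1.00 ± 0.20. Tyms, thymidylate synthase itself, was at 35.0, 39.3, 25.1, 24.8 and 23.3 CPM in CAC and 34.7, 34.6, 47.6, 36.9 and 47.8 CPM in CAC_F. These ranges overlapped and the rise was small, 0.45 ± 0.17 (adjusted p = 0.0394, edgeR). That call was lost in the fits that left out CAC replicates 3, 4 and 5 or CAC_F replicates 3 and 5 in turn, at an adjusted p of 0.0934, 0.0982, 0.105, 0.0791 and 0.0815 (edgeR). The thymidine kinase Tk1 rose by 0.61 ± 0.18. Dguok, a mitochondrial deoxynucleoside kinase, was the member that fell, by 0.55 ± 0.13. With the smooth muscle mean as a covariate 6 of the 24 rose. The E2F motif was in none of the 20 RefSeq promoters found for this list.

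Enzymes that activate or break down fluorouracil moved in both directions, 4 up and 3 down of 12. These are 33.3% and 25.0%, against 19.0% and 20.2% of all genes. Dpyd, dihydropyrimidine dehydrogenase, which clears the drug, was at 33.0, 5.99, 41.1, 33.8 and 36.6 CPM in CAC and 17.8, 9.76, 5.55, 18.0 and 8.96 CPM in CAC_F. CAC replicate 2 was as low as the treated libraries and the groups overlapped. The change was -1.32 ± 0.45 on the log2 scale (adjusted p = 0.0222, edgeR). Without CAC replicate 3 or CAC_F replicate 2, 3 or 5 its adjusted p was 0.054, 0.0535, 0.0601 and 0.0541 (edgeR). Cda, cytidine deaminase of pyrimidine salvage, fell further, from 13.0, 6.82, 18.1, 13.9 and 10.7 CPM to 2.99, 0.879, 1.65, 3.38 and 4.41 CPM. Its groups were separate, and the log2 fold change was -2.23 ± 0.42. Uck2, the uridine-cytidine kinase of dividing cells, rose by 0.84 ± 0.17 while the related Uckl1 fell by 0.42 ± 0.091. The uridine phosphorylase Upp1 was at 0.29 ± 0.52 and Tymp, thymidine phosphorylase, at -0.23 ± 0.27, neither called. The count of 4 was 2 where CAC replicate 4 or CAC_F replicate 5 was left out.

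Of 13 transporters of platinum and other drugs 5 rose and 1 fell. The copper importer Slc31a1, which also carries platinum into cells, was at 107 ± 21.7 CPM in CAC and 90.3 ± 17.0 CPM in CAC_F (SD, n = 5) and was not called. Exporters were among those that rose. The copper pump Atp7a stood at 0.99 ± 0.24, the multidrug exporters Abcc1 and Abcc4 at 0.95 ± 0.13 and 1.35 ± 0.21, and Abcb1b, a P-glycoprotein gene, at 0.78 ± 0.21. The call of Abcb1b ended without CAC_F replicates 1 and 2 (adjusted p = 0.0654, edgeR). Atp7b and Abcc2 were under the filter.

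Targets of p53 rose in 20 of 30 and fell in 2, with a median of 0.89. The largest rises in the list were in Eda2r (3.24 ± 0.55) and Gdf15 (2.80 ± 0.54), both chosen after their values were seen. Eda2r encodes a member of the tumor necrosis factor receptor family, and Gdf15 a secreted stress hormone that curbs appetite. Gdf15 was at 3.61, 2.19, 2.17, 1.56 and 0.826 CPM in CAC and 16.2, 10.6, 8.71, 16.8 and 19.7 CPM in CAC_F. Treated libraries were all higher than untreated ones, and replicate 3 was the lowest of them. Cdkn1a, the inhibitor of cyclin-dependent kinases, was at 78.8, 83.4, 116, 106 and 95.2 CPM and 341, 238, 173, 222 and 227 CPM, again with separate groups. The damage recognition genes Ddb2 and Xpc, which are p53 targets in human cells, went the other way, at -0.50 ± 0.14 and -0.31 ± 0.12. The call of Xpc (adjusted p = 0.0412, edgeR) was lost in 7 of 10 fits that left out 1 library, those without CAC replicate 2, 3, 4 or 5 or CAC_F replicate 1, 3 or 4, where it reached at most 0.141.

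Both arms of the BCL2 family, which decides on cell death by way of mitochondria, held rising genes, 8 of 18 with 1 falling. Of the killers, Bax rose by 1.26 ± 0.17, Bok by 1.55 ± 0.30, Pmaip1 (Noxa) by 1.41 ± 0.28 and Bbc3 (Puma) by 0.62 ± 0.20. Of the protectors Bcl2l1 (Bcl-xL) rose by 0.70 ± 0.15, Bcl2l2 (Bcl-w) fell by 0.39 ± 0.10, and Mcl1 and Bcl2 were at -0.07 ± 0.15 and -0.21 ± 0.19, not called. Bax was at 44.9, 37.2, 31.8, 37.5 and 30.4 CPM in CAC and 82.1, 88.9, 74.3, 88.9 and 100.4 CPM in CAC_F, with no overlap. With the smooth muscle covariate 4 members rose.

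Of 32 genes of interstrand crosslink, mismatch and checkpoint repair 17 rose (11 with the smooth muscle covariate) and 1 fell. Clspn, the adaptor that activates the kinase Chek1 at stalled forks, was at 14.2, 19.0, 13.9, 8.21 and 9.43 CPM in CAC and 39.4, 32.2, 45.1, 36.3 and 45.5 CPM in CAC_F. The groups were well apart, and it rose by 1.62 ± 0.31 (adjusted p = 0.000404, edgeR). Brca1 rose by 1.46 ± 0.28, the helicase Blm by 1.37 ± 0.28, the Fanconi anaemia gene Fancd2 by 1.13 ± 0.28, the nuclease subunit Ercc1 by 1.29 ± 0.31 and the mismatch sensor Msh6 by 0.86 ± 0.16. Parp1 was at 0.05 ± 0.16 and not called. Of the 24 members with a RefSeq promoter, 5 held the E2F motif (20.8%).

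Replication and S phase genes rose in 33 of 40 with none falling and a median of 0.97. In 29 of the 40 every treated library exceeded every untreated one, where 10.9% of all genes did. All 3 genes whose promoters are printed above for E2F were among these 29. Mcm6 was at 72.1, 80.0, 61.9, 43.0 and 50.9 CPM in CAC and 125, 101, 127, 120.0 and 148 CPM in CAC_F, Mcm5 at 58.6, 84.5, 50.3, 37.2 and 38.9 and 118, 104, 138, 127 and 171 CPM, and Cdc6 at 9.27, 11.6, 8.34, 6.39 and 6.95 and 11.8, 15.6, 30.1, 20.9 and 28.8 CPM. CAC replicate 2 was the highest untreated library for all 3, and for Cdc6 it nearly reached CAC_F replicate 1. The log2 fold changes were 1.01 ± 0.25, 1.29 ± 0.29 and 1.33 ± 0.32, that of Mcm6 being 0.71 with the smooth muscle covariate (adjusted p = 0.0768, edgeR). E2f7, a repressor that E2F itself induces, rose by 2.01 ± 0.33, the cyclin Ccne1 by 1.67 ± 0.28 and the chromatin assembly subunit Chaf1b by 1.57 ± 0.27.

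Mitosis genes rose in 19 of 30 with none falling and a median of 0.70. The cyclin Ccnb1 rose by 1.19 ± 0.29, its kinase Cdk1 by 1.06 ± 0.26 and Anln, a scaffold of the dividing cell's furrow, by 1.09 ± 0.26. Top2a was at 0.49 ± 0.26 and not called. Of the 26 members with a RefSeq promoter, 1 held the E2F motif (3.85%). With the smooth muscle covariate 17 of the 40 S phase genes and 3 of the 30 mitosis genes rose.

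Replication-dependent histone genes, whose messages normally climb with S phase and mostly lack a poly(A) tail, had the opposite sign in these poly(A) libraries. Such libraries hold mainly messages with a tail, so histone messages without one were mostly not measured. None of 34 rose and 15 fell, with a median of -0.62. H2bc21 was at 18.8, 18.0, 18.3, 16.0 and 16.8 CPM in CAC and 3.14, 3.27, 10.8, 7.04 and 6.67 CPM in CAC_F, with no overlap. Its log2 fold change was -1.51 ± 0.23, that of H2ac25 -1.14 ± 0.21 and that of H3c15 -1.61 ± 0.33. The count of falling histones was 9 without CAC replicate 2 and 7 without CAC_F replicates 1 and 2. Near-identical copies in this family can share reads, so single members are uncertain.

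Genes that make ribosomes rose in 24 of 25, with none falling and a median of 0.80. Ncl, nucleolin, was at 327, 438, 326, 319 and 310.4 CPM in CAC and 882, 921, 809.7, 873 and 909.8 CPM in CAC_F, with no overlap and CAC replicate 2 the highest untreated library (1.35 ± 0.21; adjusted p = 9.31e-05, edgeR). Npm1, which shuttles ribosomal subunits, rose by 1.18 ± 0.19, the helicase Ddx21 by 1.15 ± 0.17, the processing factor Rrp12 by 1.26 ± 0.19 and Polr1a, the large subunit of RNA polymerase I, by 0.80 ± 0.17. Ribosomal proteins had a median of 0.12 over 86 genes, 12 rising (14.0%, below the 19.0% of all genes) and none falling. That count ran from 4 without CAC replicate 3 to 23 without CAC replicate 1 and was 7 and 5 without CAC replicates 4 and 5. Proteasome subunits rose in 18 of 34, such as the cap subunit Psmc4 (0.59 ± 0.10), and tRNA synthetases in 9 of 17, such as Hars1 (0.72 ± 0.13). With the smooth muscle covariate 3 ribosomal protein, 7 proteasome and 3 tRNA synthetase genes rose.

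**Figure D2:**
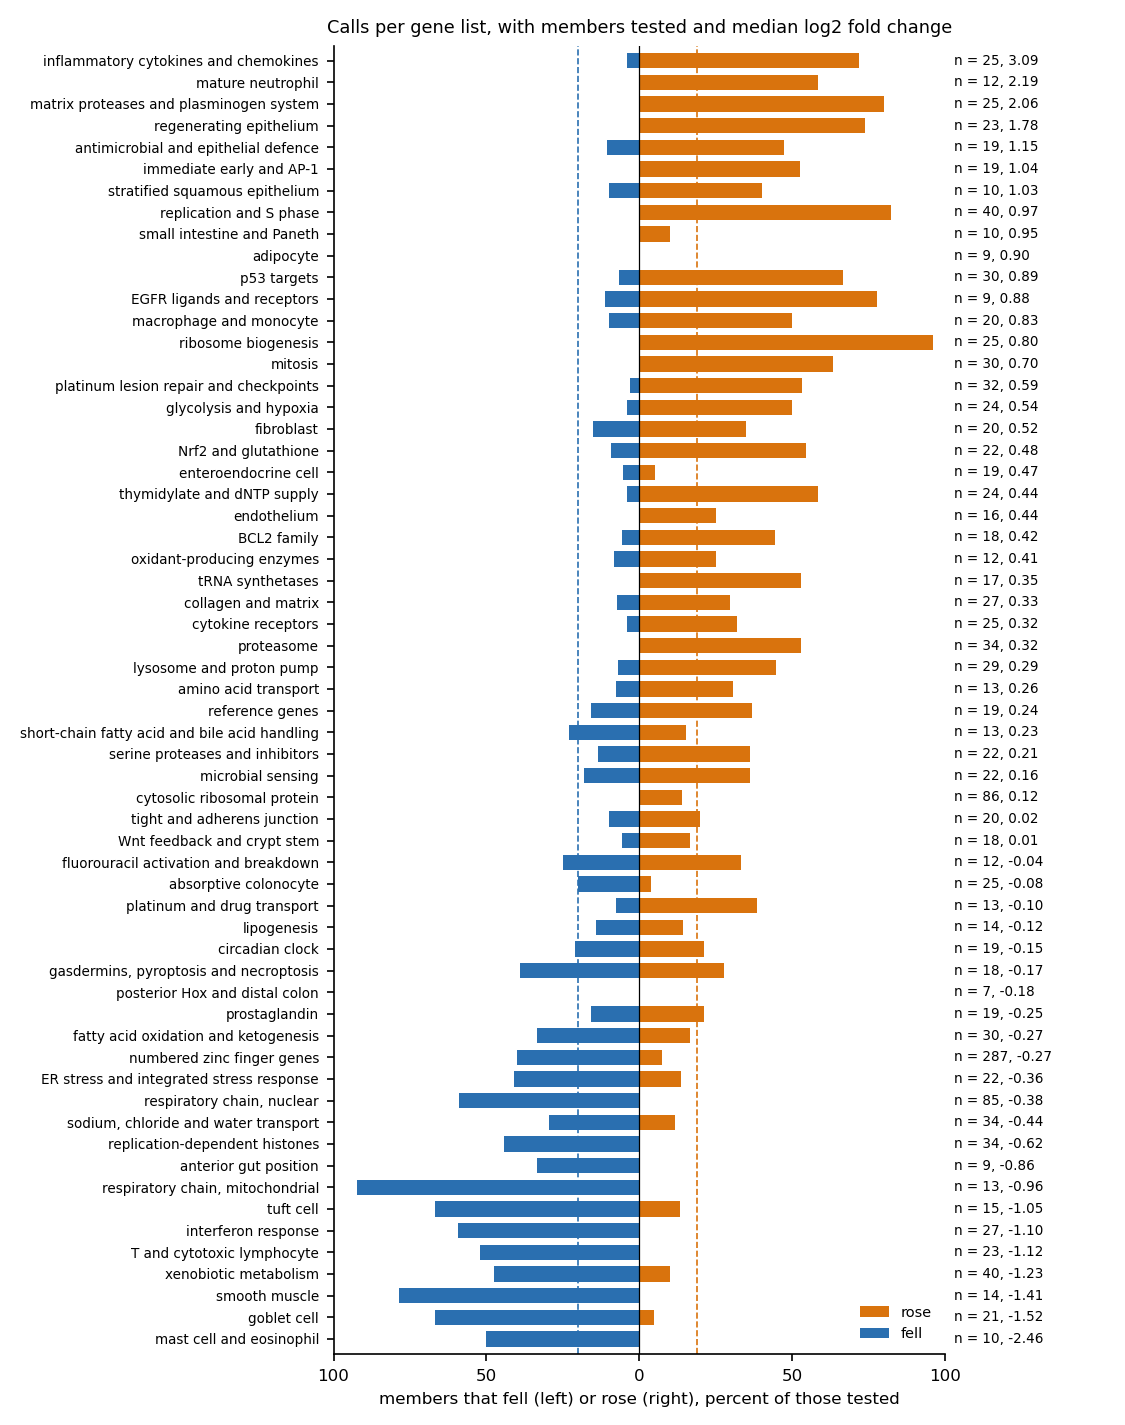
Share of tested members that rose (orange, to the right) and fell (blue, to the left) in each gene list, in percent, with the number of members tested and the median log2 fold change printed at the side. Dashed lines mark the shares over all 15080 genes, 19.0% higher and 20.2% lower. S phase and ribosome biogenesis lie far to the right, and goblet and tuft cell genes far to the left.

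Genes of the regenerating epithelium, the state that follows injury, rose in 17 of 23 with none falling and a median of 1.78. In all 17 the treated libraries lay above the untreated ones. Ly6a, which encodes the surface protein Sca-1 of that state, was at 74.2, 106, 58.7, 43.3 and 54.4 CPM in CAC and 471, 552, 569, 515 and 447 CPM in CAC_F (2.92 ± 0.48; adjusted p = 0.000117, edgeR). Its treated libraries were all several times above the highest untreated one, CAC replicate 2. Anxa1, a lipid-binding protein of resolution and repair, rose by 1.82 ± 0.26, the urokinase receptor Plaur by 2.53 ± 0.41 and Krt7, a keratin of simple ducts, by 1.15 ± 0.20. Clu, clusterin, another marker of that state, was at 125 ± 87.4 CPM in CAC and 323 ± 136 CPM in CAC_F (SD, n = 5) and was not called.

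Stem cell and Wnt genes rose in 3 of 18 (16.7%, near the 19.0% of all genes) and fell in 1, with a median of 0.01. Lgr5, the marker of crypt base stem cells, was under the filter at 3.63, 0.690, 5.22, 5.16 and 2.48 CPM in CAC and 0.430, 0.216, 1.50, 0.390 and 0.648 CPM in CAC_F. The Wnt feedback gene Axin2 was at -0.50 ± 0.24 and Ascl2, a regulator of stem cell fate, at -0.23 ± 0.48, neither called. Myc rose by 1.73 ± 0.32, from 50.8, 23.6, 27.8, 18.1 and 40.9 CPM to 122, 95.8, 74.8, 82.2 and 159.8 CPM, and its groups did not overlap. Sp5 rose by 2.93 ± 0.58 from a low level, and Slc12a2, a chloride cotransporter of crypts, fell by 0.77 ± 0.20.

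Of 9 genes for ligands, receptors and a feedback inhibitor of the epidermal growth factor pathway 7 rose and 1 fell. Areg, amphiregulin (ENSMUSG00000029378; chromosome 5, 91287458 to 91296291 in the deposited table), was at 5.46, 10.1, 3.22, 2.91 and 5.44 CPM in CAC and 145, 81.2, 39.6, 72.3 and 74.8 CPM in CAC_F. The lowest treated library, replicate 3, was well above the highest untreated one, replicate 2, and the log2 fold change was 3.93 ± 0.51 (adjusted p = 2.45e-05, edgeR). Ereg, epiregulin, rose by 3.23 ± 0.56, Hbegf by 1.90 ± 0.46 and Btc, betacellulin, by 1.74 ± 0.32. Erbb2, a coreceptor of the pathway, fell by 0.78 ± 0.23. The AP-1 factor Fosl1, which growth factor signals induce, rose by 5.78 ± 0.97, from 0, 0.173, 0.200, 0.0750 and 0 CPM to 6.15, 7.99, 2.11, 2.15 and 6.83 CPM, again with separate groups. Of 19 immediate early genes 10 rose and none fell. Ier3 was at 3.07 ± 0.50 and Klf6 at 1.04 ± 0.22, while Fos and Jun were at 1.03 ± 0.68 and 0.40 ± 0.45, not called. Without CAC_F replicates 1 and 2 the counts were 4 of 9 and 4 of 19.

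Junction genes rose in 4 of 20 (20.0%, near the 19.0% of all genes) and fell in 2, and single claudins moved far. Of the 20, 2 rose without CAC replicate 4 or 5. Cldn4, a claudin that seals the junction and is high at the colon surface, was at 6.86, 14.2, 17.9, 17.1 and 32.6 CPM in CAC and 209, 180.0, 100.1, 135 and 152 CPM in CAC_F. No untreated library came near the treated ones, and the rise was 3.13 ± 0.47 (adjusted p = 5.92e-05, edgeR). Cldn8 and Cldn15 fell by 2.53 ± 0.65 and 1.32 ± 0.29, and Ocln and the pore-forming Cldn2 were at -0.30 ± 0.16 and 0.69 ± 0.46, not called. Keratins of stratified epithelium appeared at low levels. Krt4 was at 0, 0.0398, 0.0667, 0 and 0.0601 CPM in CAC and 4.23, 7.73, 3.42, 3.54 and 23.3 CPM in CAC_F, while the basal cell marker Krt5 was at 0.161 ± 0.184 and 0.0685 ± 0.0955 CPM (SD, n = 5) and under the filter. Of 27 squamous genes with a row of counts, 10 passed the filter, 4 of them rose and 1 fell, and 7 rose without CAC replicate 2. Members near 0 CPM in CAC could pass only through libraries of other groups, so these counts depend on the filter.

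Goblet cell genes fell in 14 of 21, with 1 rising and a median of -1.52, and tuft cell genes fell in 10 of 15 with 2 rising. Ang4, an antimicrobial ribonuclease of goblet and Paneth cells, was at 926, 197, 2289, 1869.7 and 1775 CPM in CAC and 92.5, 10.5, 24.4, 20.2 and 7.69 CPM in CAC_F. CAC replicate 2 was the lowest untreated library and still above every treated one, and the log2 fold change was -5.51 ± 1.28 (adjusted p = 0.00192, edgeR). The goblet factor Foxa3 fell by 1.20 ± 0.26 and Spink4, a secreted protease inhibitor, by 1.88 ± 0.47. The mucus proteins Tff3 and Zg16 were at 0.00 ± 0.31 and 0.02 ± 0.46, not called. Pou2f3, the factor that specifies tuft cells, was under the filter at 1.64 ± 1.17 CPM in CAC and 0.0744 ± 0.0618 CPM in CAC_F (SD, n = 5). Without CAC_F replicates 1 and 2, 13 goblet and 10 tuft genes fell.

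Absorptive colonocyte genes had a median of -0.08 over 25, with 1 rising and 5 falling (20.0%, near the 20.2% of all genes). Most of the classical markers did not pass, among them the bicarbonate exchanger Slc26a3 (-1.08 ± 0.62), the carbonic anhydrase Car1 (-0.93 ± 0.60) and the surface keratin Krt20 (0.19 ± 0.28).  Guca2a, guanylin, the hormone that opens chloride secretion, was at 579, 278, 565, 674 and 548 CPM in CAC and 198, 32.7, 157, 188 and 119 CPM in CAC_F (-1.93 ± 0.38). Treated libraries were all lower, replicate 2 by far. Pigr, which carries IgA and IgM into the lumen, fell by 1.71 ± 0.39 and Fabp2, a fatty acid carrier, by 2.28 ± 0.60. Plac8 was the rising member (1.01 ± 0.16). Enteroendocrine genes had 1 rising and 1 falling of 19, which is 5.26% each and below the shares of all genes. These were Pyy at 1.43 ± 0.44 and Sst, somatostatin, at -1.59 ± 0.42. The call of Pyy ended without CAC_F replicates 1 and 2 (adjusted p = 0.0592, edgeR).

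**Figure D3:**
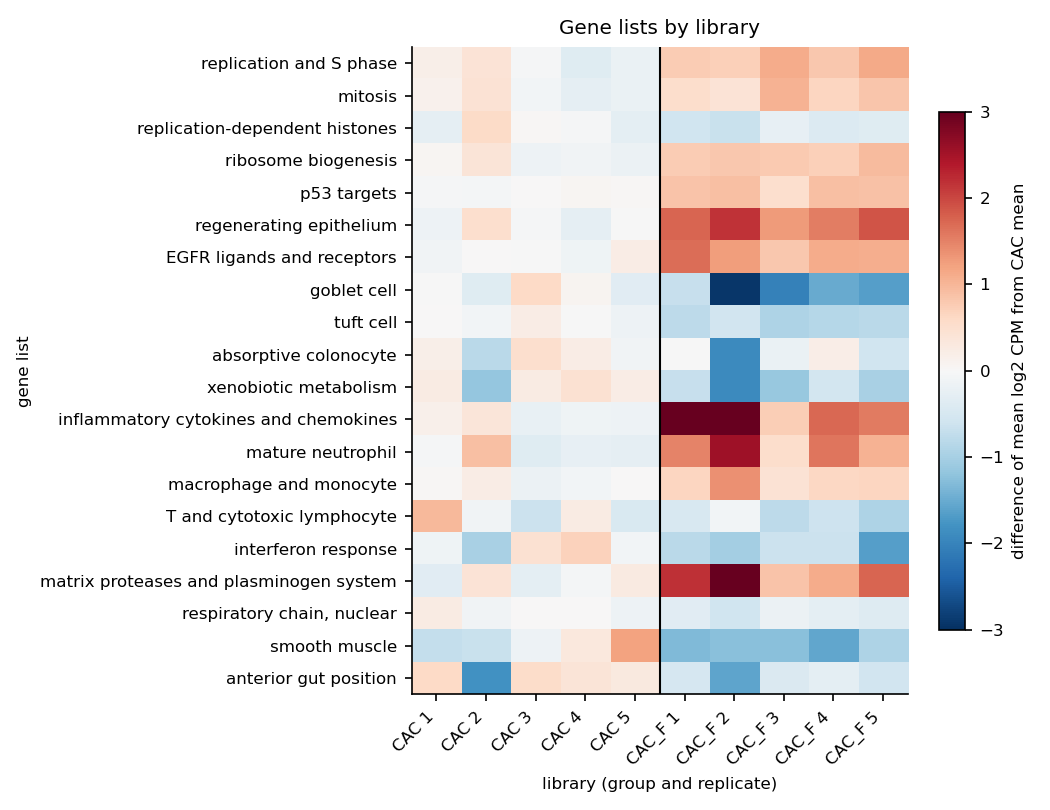
Difference of each list's mean log2 CPM from its mean over the 5 CAC libraries, for the 10 libraries (columns) and selected lists (rows), as a colour from -3 (blue) to 3 (red), with values beyond these ends drawn at the end colour. The S phase and regenerating epithelium rows are red in all 5 CAC_F libraries, whereas the cytokine row is deepest in CAC_F replicates 1 and 2.

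Enzymes that process drugs and other foreign compounds fell in 19 of 40 with 4 rising, and their median was -1.23. Sult1a1, a sulfotransferase of the colon, was at 473, 64.7, 215, 269.8 and 356 CPM in CAC and 18.0, 28.9, 23.2, 32.5 and 21.0 CPM in CAC_F. CAC replicate 2 lay nearest the treated libraries, and the log2 fold change was -3.48 ± 0.57 (adjusted p = 0.000124, edgeR). Cyp2c55, a colonic cytochrome P450, was at 1663, 104, 1253, 1507 and 1293 CPM in CAC and 86.3, 1.23, 29.7, 41.6 and 69.7 CPM in CAC_F, with CAC replicate 2 apart from its group and close to the highest treated library (-4.67 ± 1.09). The carboxylesterases Ces2b and Ces2a fell by 3.64 ± 0.63 and 3.39 ± 0.70 and the glucuronosyltransferase Ugt2b34 by 1.70 ± 0.31. Against this trend the glutathione transferases Gsta1 and Gsta2 rose by 1.94 ± 0.44 and 2.67 ± 0.64 and the epoxide hydrolase Ephx1 by 1.40 ± 0.34. Without CAC replicate 2, 23 members fell, and with the smooth muscle covariate 14.

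Genes for the transport of salt and water fell in 10 of 34 (29.4%) and rose in 4 (11.8%), against 20.2% and 19.0% of all genes. Clca4b, a secreted metalloprotease of the chloride channel accessory family, was at 10.4, 139, 23.6, 8.61 and 2.37 CPM in CAC and 1662, 1255, 1298, 2496 and 522 CPM in CAC_F. CAC replicate 2 was the highest untreated library, below the lowest treated one, and the rise was 5.30 ± 0.89. Sgk1, the kinase that answers aldosterone and glucocorticoids, rose by 1.68 ± 0.40. The chloride channel Cftr was at -0.72 ± 0.22, the water channel Aqp11 at -1.73 ± 0.35, and the sodium channel subunit Scnn1a at -0.29 ± 0.36, the last not called. The call of Cftr ended without CAC_F replicates 1 and 2 (adjusted p = 0.135, edgeR), and the falling count was then 6. Of 13 genes that handle short-chain fatty acids or bile acids 2 rose (1 without CAC replicate 1, none without CAC replicate 4) and 3 fell. These are 15.4% and 23.1%, near the 19.0% and 20.2% of all genes. The butyrate importer Slc5a8 fell by 2.15 ± 0.44 and Ffar2, a receptor of these acids, by 1.73 ± 0.28. Vdr, the vitamin D receptor, was at 307, 169, 449, 302 and 309 CPM in CAC and 67.2, 37.0, 163, 118 and 55.2 CPM in CAC_F, with no overlap (-1.80 ± 0.38).

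Gasdermins of the C family, pore-forming proteins of the mucosa, fell by large folds. Gsdmc2 (ENSMUSG00000056293; chromosome 15, 63696195 to 63717026 in the deposited table) was at 691, 1037, 2263, 1342 and 1170.2 CPM in CAC and 38.7, 44.5, 42.6, 38.2 and 57.3 CPM in CAC_F. The treated libraries lay within a narrow band far below the untreated ones, and the log2 fold change was -4.88 ± 0.80 (adjusted p = 0.00012, edgeR). Gsdmc3 and Gsdmc were at -5.94 ± 0.92 and -5.65 ± 1.21, although these neighbouring copies are similar in sequence and reads may be split between them. Gsdmd, which executes pyroptosis, went the other way at 0.41 ± 0.13. So did Ripk3, the kinase of necroptosis, from 32.0, 40.8, 38.2, 24.8 and 22.6 CPM to 92.9, 72.2, 85.7, 91.4 and 72.8 CPM without overlap (1.39 ± 0.22), and the initiator caspase Casp8 (0.73 ± 0.14). In the list of 18 as a whole 5 rose and 7 fell, with 2 rising under the smooth muscle covariate and 4 falling without CAC_F replicates 1 and 2.

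Inflammatory cytokines and chemokines rose in 18 of the 25 (of 34) that passed the filter and fell in 1, with a median of 3.09. A gene near 0 CPM in CAC could pass only through libraries of other groups, so this count and median depend on the filter. Of the genes whose NF-kB motif is printed above, Cxcl1, a chemokine that draws neutrophils, was at 0.137, 1.87, 0.250, 0 and 0.0450 CPM in CAC and 778, 319, 2.64, 19.4 and 20.6 CPM in CAC_F. Il6 was at 119, 64.6, 0, 1.65 and 5.22 CPM in CAC_F replicates 1 to 5 and Cxcl2 at 199, 110.4, 0.864, 5.12 and 4.79 CPM. In CAC, Il6 ranged from 0 to 0.167 CPM and Cxcl2 from 0 to 0.597 CPM. CAC_F replicates 1 and 2 held most of these transcripts, and Il6 was at 0 in replicate 3, so that its groups overlapped. Without both replicates the log2 fold change of Cxcl1 was 4.92 (adjusted p = 0.0163, edgeR), that of Il6 5.66 (adjusted p = 0.0272, edgeR) and that of Cxcl2 4.23 (0.0491), and 16 members rose. Cytokines less bound to those libraries were Lif, a relative of Il6, at 4.01, 4.29, 2.25, 3.07 and 2.70 CPM in CAC and 109, 90.0, 10.1, 17.2 and 25.6 CPM in CAC_F, and Il1rn, the antagonist of interleukin 1, which rose by 2.12 ± 0.36. Both had separate groups. Ccl28, the epithelial chemokine that draws IgA plasma cells, was the member that fell (-1.71 ± 0.44). Il22, a lymphoid cytokine that acts on epithelium, was under the filter, at 0 in every CAC library and at 17.3, 15.1, 0.194, 3.00 and 0.720 CPM in CAC_F.

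The receptors moved less, 8 up and 1 down of 25. Il4ra rose by 1.76 ± 0.29, Tnfrsf1b, the second receptor of tumor necrosis factor, by 1.40 ± 0.25 and the chemokine receptor Ccr1 by 1.25 ± 0.25, while Ccr2, the receptor of inflammatory monocytes, fell by 1.48 ± 0.44. The rising count was 5 without CAC_F replicate 1, 5 without CAC_F replicate 2 and 4 without both.

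Markers of neutrophils did not all have the same sign. Ly6g, the gene of a neutrophil surface protein, was at 2.26, 92.2, 2.99, 3.19 and 3.27 CPM in CAC and 1050.3, 386, 268, 823 and 795 CPM in CAC_F, a rise of 5.00 ± 1.17. The groups were separate, with CAC replicate 2 far above the other untreated libraries. Cxcr2, the chemokine receptor of mature neutrophils, was under the filter, at 0.305, 5.60, 0.284, 0 and 0.120 CPM in CAC and 0.727, 0.833, 0.223, 0.570 and 0.600 CPM in CAC_F. Its highest value was in CAC replicate 2 and no treated library reached 1 CPM. Csf3r, the receptor of the granulocyte growth factor, was at 8.91 ± 7.87 CPM and 7.62 ± 3.03 CPM (SD, n = 5), not called. None of 10 granule genes of immature neutrophils passed the filter, and Mpo was at 0.242 ± 0.0721 CPM in CAC and 0.0309 ± 0.0690 CPM in CAC_F. Of the 12 neutrophil genes (of 17) that passed the filter 7 rose, 4 without CAC_F replicates 1 and 2. As with the cytokines, members near 0 CPM in CAC could pass only through libraries of other groups, so this count depends on the filter. Where only genes whose FPKM averaged 5 or more were tested, 1 of 2 rose. Ly6g lies among similar Ly6 genes, and a share of its reads could come from them.

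Macrophage and monocyte genes rose in 10 of 20 and fell in 2, but the pan-macrophage markers Adgre1 and Csf1r were at -0.20 ± 0.21 and -0.13 ± 0.18 and were not called. Spp1, osteopontin, was at 0.961, 2.06, 0.767, 2.36 and 2.39 CPM in CAC and 6.99, 26.3, 14.1, 21.2 and 28.6 CPM in CAC_F, with no overlap (3.51 ± 0.53). Itgam, an integrin of myeloid cells, rose by 1.63 ± 0.35 and Arg1, arginase, by 1.90 ± 0.47, the latter's call ending without CAC_F replicates 1 and 2 (adjusted p = 0.0515, edgeR). The rising count was then 4. Of 16 endothelial genes 4 rose (25.0%, near the 19.0% of all genes) and none fell, 2 rising without CAC_F replicates 1 and 2. Selp, the selectin that captures leukocytes, was at 1.30, 13.4, 2.74, 2.98 and 3.24 CPM in CAC and 176, 216, 8.16, 49.2 and 37.7 CPM in CAC_F (4.36 ± 0.92), and the adhesion molecule Icam1 rose by 2.81 ± 0.54. CAC replicate 2 was the highest untreated library for Selp and lay above CAC_F replicate 3. Pecam1 and Cdh5, present on all endothelium, were at 0.44 ± 0.30 and 0.44 ± 0.35, not called.

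Of 10 mast cell and eosinophil genes 5 fell and none rose. Ccr3, the eosinophil chemokine receptor, was at 3.11, 1.09, 5.15, 1.48 and 1.67 CPM in CAC and 0.248, 0.154, 0.268, 0.240 and 0.0720 CPM in CAC_F. All treated libraries were lower, and the log2 fold change was -3.67 ± 0.51 (adjusted p = 3.6e-05, edgeR). Siglecf, a lectin of eosinophils and tuft cells, fell by 1.54 ± 0.37. Mcpt1, a mucosal mast cell protease, was at 7.24, 31.3, 243, 1.93 and 1.49 CPM in CAC, where replicate 3 exceeded the rest, and at 1.47, 9.06, 4.63, 0.225 and 1.36 CPM in CAC_F. Its call (adjusted p = 0.023, edgeR) was lost without CAC replicate 3 (0.284) and without CAC_F replicate 1, 4 or 5 (0.0545, 0.0506 and 0.0523). The falling count was 2 without CAC replicate 3 and 3 without any of the other 3 libraries. T cell and cytotoxic genes fell in 12 of 23 and interferon response genes in 16 of 27, none rising. These counts also moved with single libraries, 4 T cell genes without CAC replicate 1, 5 to 7 without CAC_F replicate 1, 3, 4 or 5, and 9 interferon genes without CAC replicate 4. Leaving out CAC_F replicates 1 and 2 together, 7 T cell and 5 interferon genes fell, and with the smooth muscle covariate 18 and 4. The list means overlapped between groups for T cells, at 2.15 to 3.78 in CAC and 1.87 to 2.72 in CAC_F.

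Epithelial defence genes rose in 9 of 19 and fell in 2. Lcn2, lipocalin 2, which withholds iron from bacteria, was at 1.66, 4.79, 1.38, 2.17 and 2.34 CPM in CAC and 263, 757, 20.5, 54.5 and 67.9 CPM in CAC_F. Every treated library exceeded the untreated ones, by far the most in replicates 1 and 2, and the rise was 6.55 ± 1.41. The lectins Reg3b and Reg3g rose by 3.33 ± 0.89 and 4.09 ± 0.82, whereas Itln1, intelectin of goblet cells, fell by 5.76 ± 1.82, from 2067, 343, 5020.5, 1678 and 886 CPM to 129, 22.1, 32.9, 0.270 and 0.744 CPM. Its highest treated library, replicate 1, lay below the untreated ones. Nos2, inducible nitric oxide synthase, was at 13.9, 15.8, 19.1, 4.65 and 3.54 CPM in CAC and 94.1, 109.6, 141, 170.1 and 13.3 CPM in CAC_F. CAC_F replicate 5 lay within the untreated range, the other 4 well above it (3.21 ± 0.69). Of 22 genes of microbial sensing 8 rose, among them Tirap (0.87 ± 0.13) and Myd88 (0.82 ± 0.18), adaptors of Toll-like receptors, and 4 fell, among them Nlrp6 (-2.06 ± 0.56). The receptors Tlr2 and Tlr4 themselves were at -0.19 ± 0.29 and 0.08 ± 0.17, not called. In this list 36.4% rose and 18.2% fell, the latter near the 20.2% of all genes. Ptgs2, which starts the synthesis of prostaglandins, was at 321, 255, 7.97, 6.21 and 10.5 CPM in CAC_F and at 6.83, 6.80, 2.82, 1.69 and 8.45 CPM in CAC. The rise of 4.49 ± 0.93 rested on CAC_F replicates 1 and 2, without which it was 0.66 (adjusted p = 0.414, edgeR).

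**Figure D4:**
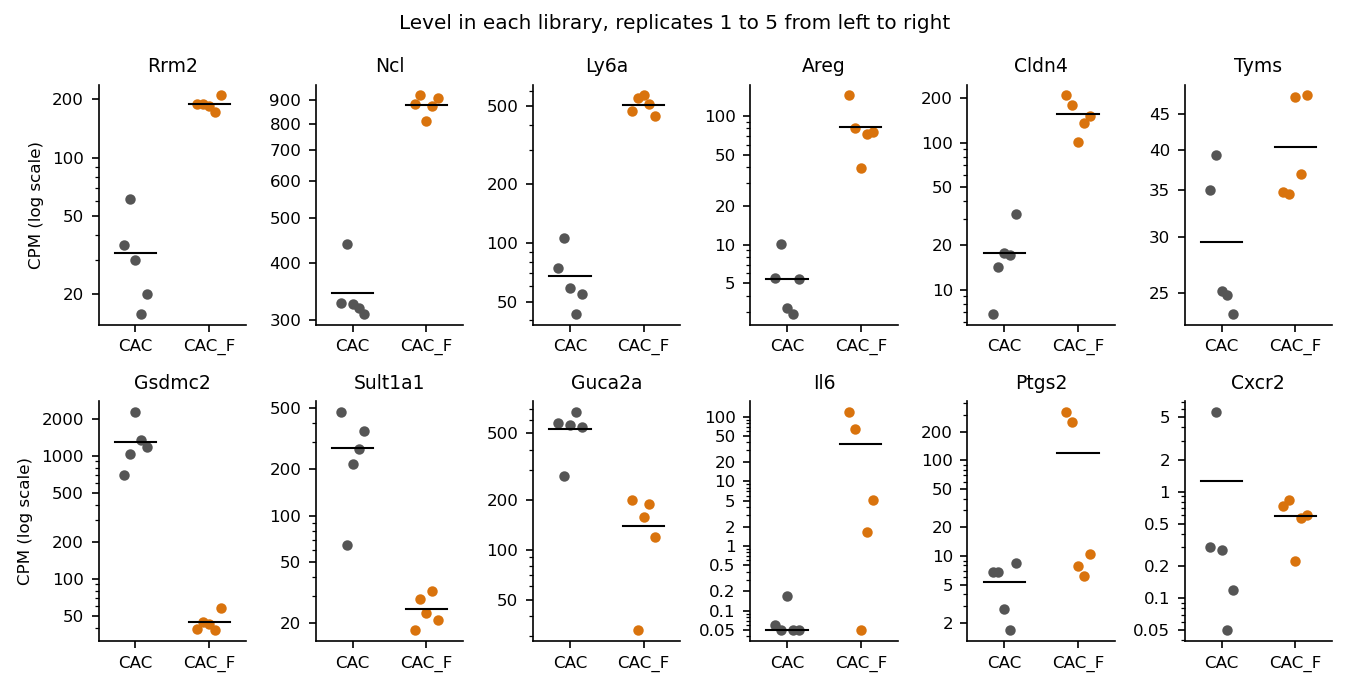
CPM in each of the 10 libraries (points; horizontal bars are group means, n = 5) for 12 genes described in the text, on log axes with values below 0.05 CPM drawn at 0.05. Rrm2, Ncl, Ly6a, Areg and Cldn4 are higher in every CAC_F library, Gsdmc2, Sult1a1 and Guca2a lower in every one, and Il6, Ptgs2, Cxcr2 and Tyms overlap.

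Matrix proteases and the plasminogen system rose in 20 of 25 with none falling and a median of 2.06. Mmp12, the elastase of macrophages, was at 1.31, 4.19, 1.89, 2.17 and 0.811 CPM in CAC and 23.9, 53.1, 38.6, 29.0 and 41.4 CPM in CAC_F. The treated libraries were all higher and near each other (4.16 ± 0.61; adjusted p = 4.8e-05, edgeR). Mmp3, a stromal protease, was at 100.4, 588, 7.62, 9.19 and 35.0 CPM in CAC_F and 3.45, 21.4, 0.667, 2.40 and 2.75 CPM in CAC. Its groups overlapped, replicate 2 was the highest of each group, and without CAC_F replicate 2 the call was lost (2.64; adjusted p = 0.0521, edgeR). Without CAC_F replicates 1 and 2, 12 members rose. Collagen and matrix genes had 8 rising and 2 falling of 27. Col18a1 of basement membranes rose by 2.52 ± 0.45 and Lox, which crosslinks collagen, by 2.92 ± 0.73, while the main fibrillar collagens Col1a1 and Col3a1 were at 0.19 ± 0.34 and -0.37 ± 0.41, not called. The rising count was 4 without CAC_F replicate 2, 5 without CAC_F replicate 5 and 3 without CAC_F replicates 1 and 2. Of 20 fibroblast genes 7 rose (3 without CAC_F replicates 1 and 2), such as Pdgfra (1.31 ± 0.30) and Vcam1 (1.90 ± 0.38), and 3 fell, such as Ogn (-1.67 ± 0.37).

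Respiratory chain genes of the nucleus fell in 50 of 85 and none rose, with a median of -0.38. Ndufb11, a subunit of complex I, was at 75.7, 52.9, 58.6, 78.2 and 63.4 CPM in CAC and 39.8, 37.4, 42.2, 38.7 and 36.3 CPM in CAC_F, with no overlap (-0.76 ± 0.12). The falling count was 33 without CAC replicate 1, 32 without CAC_F replicate 2 and 16 without CAC_F replicates 1 and 2. Subunits coded in mitochondria fell in 12 of 13, 7 with the smooth muscle covariate. Glycolysis went the other way, 12 of 24 up and 1 down. Pfkfb3, which makes an activator of glycolysis, was at 24.6, 25.2, 17.5, 22.3 and 25.9 CPM in CAC and 331, 229, 39.1, 79.3 and 61.0 CPM in CAC_F (2.68 ± 0.50). Replicates 1 and 2 were the highest treated libraries and none overlapped. Fatty acid oxidation was split, 5 up and 10 down of 30, with Acadl at 0.82 ± 0.14, Acadm at -1.01 ± 0.21, Hadh at -1.18 ± 0.24 and the regulators Ppargc1a and Ppara at -1.68 ± 0.36 and -1.82 ± 0.48. The rising share of this list was 16.7%, near the 19.0% of all genes, and its falling share 33.3% against 20.2%. Its rising count was 3 without CAC replicate 2 or CAC replicate 4. In the antioxidant list 12 of 22 rose and 2 fell. Nqo1, often used as its readout, was one of the falling genes at -1.14 ± 0.38 (adjusted p = 0.0214, edgeR), a call lost without CAC_F replicate 2 (0.0586) or CAC_F replicate 5 (0.0567), and Slc7a11, the cystine importer, rose by 1.46 ± 0.42.

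Stress and rhythm genes did not share a direction. Ddit3 (Chop), the death factor of endoplasmic reticulum stress, fell from 14.6, 18.4, 30.0, 27.5 and 16.5 CPM to 7.10, 7.34, 10.9, 10.4 and 8.78 CPM without overlap (-1.26 ± 0.17), while the amino acid enzymes Psat1 and Asns rose by 1.89 ± 0.37 and 0.83 ± 0.21. In the list of 22, 3 rose and 9 fell, the latter count 5 without CAC replicate 3 or CAC_F replicate 4. Cytosolic heat shock genes Hspa1a and Hspa1b, near-identical copies, were at -2.88 ± 0.76 and -2.65 ± 0.75. Their list of 14 chaperones had 2 rising and 3 falling, with a median of -0.13. These are 14.3% and 21.4%, near the 19.0% and 20.2% of all genes. Of 19 clock genes 4 rose and 4 fell (21.1% each, near the 19.0% and 20.2% of all genes). The repressor Nr1d1 was at 92.1, 57.1, 146, 141 and 155 CPM in CAC and 26.7, 54.5, 11.6, 27.9 and 20.2 CPM in CAC_F (-2.07 ± 0.34) and the clock output gene Dbp fell by 2.53 ± 0.66, while Nfil3, its antagonist, rose by 1.90 ± 0.47. Nr1d1 was lower in every treated library, the closest pair being CAC replicate 2 and CAC_F replicate 2. The hour of sampling was not given in the labels, and its part was not tested. Bmal1 was at -0.17 ± 0.30, not called. Lysosomal genes rose in 13 of 29 and fell in 2, such as Ctsd, cathepsin D (0.67 ± 0.11), and the metallothioneins Mt1 and Mt2, which bind metals, rose by 2.37 ± 0.58 and 3.85 ± 0.90. Mt2 was at 418, 448, 43.7, 62.6 and 79.1 CPM in CAC_F against 13.6, 13.8, 17.7, 11.3 and 16.5 CPM in CAC, highest in replicates 1 and 2, and its call ended without them (adjusted p = 0.0652, edgeR).

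Numbered zinc finger genes, a large family of mostly KRAB-type repressors, fell in 115 of 287 and rose in 21, a median of -0.27. Zfp963 was at 6.07, 7.30, 9.61, 10.9 and 8.47 CPM in CAC and 2.25, 3.38, 3.89, 2.73 and 3.19 CPM in CAC_F, with no overlap (-1.45 ± 0.17; adjusted p = 1.43e-05, edgeR). Zfp213 fell by 1.22 ± 0.18 and Zfp952 by 0.92 ± 0.13, while Zfp37 rose by 1.68 ± 0.35. Without CAC_F replicates 1 and 2 the counts were 59 falling and 19 rising.

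Markers of other tissues were mostly low. Alb and Apoa2 of the liver were under the filter, and none of 9 adipocyte genes was called, although their summed level was 46.0 to 385 CPM in CAC and 75.1 to 681 CPM in CAC_F. Pancreas genes summed to 24.7 to 57.6 CPM in CAC and 12.8 to 197 CPM in CAC_F, the highest in CAC_F replicate 2, and skeletal muscle genes to 8.48 to 105 and 9.14 to 26.7 CPM. Of 7 posterior Hox genes none was called. Their list mean was 2.37 to 3.48 in CAC and 2.14 to 3.48 in CAC_F. Of 9 genes of more proximal segments 3 fell, and 7 did without CAC replicate 2. Their list mean was 3.76 in CAC replicate 2 and 5.85 to 6.16 in the other CAC libraries, against 3.97 to 5.28 in CAC_F. These markers of position thus differed between libraries of a group. Apart from CAC replicate 2, those of proximal segments were also higher in CAC than in any CAC_F library. The part of position in the results was not tested. Among small intestine and Paneth genes 1 of 10 rose (3 without CAC replicate 3), Rbp2, a retinol carrier of the small intestine, at 1.10, 1.86, 2.49, 2.01 and 1.46 CPM in CAC and 32.9, 13.5, 11.5, 24.3 and 14.1 CPM in CAC_F, and Apoa4 was under the filter.

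The remaining groups show where the levels after FOLFOX stood. Untreated mice without AOM/DSS (NC, n = 6) had 4.92 ± 2.53 CPM of Areg, 27.5 ± 11.4 of Rrm2, 56.4 ± 14.7 of Ly6a and 2109 ± 954 of Gsdmc2 (mean ± SD). Mice given FOLFOX with a probiotic complex (CAC_FP, n = 5) had 33.0 ± 15.4, 123 ± 37.0, 323 ± 152 and 45.3 ± 10.6 CPM in the same order. Those given FOLFOX, probiotics and loperamide (CAC_FPL, n = 6) had 24.2 ± 15.0, 84.6 ± 56.1, 208 ± 171 and 242 ± 385 CPM. No gene passed between CAC_FP and CAC_F (0 of 15080 by edgeR, with 2401 at an unadjusted p below 0.05), which does not show that these groups are alike. Against CAC_F, 7.14% of all genes were higher and 5.05% lower in CAC_FPL (edgeR, adjusted p below 0.05), and these contrasts share the CAC_F libraries with the comparison above. The log2 differences of CAC_FPL from CAC_F were -1.77 ± 0.44 for Areg (adjusted p = 0.0159), -1.15 ± 0.40 for Rrm2 (0.0574), -1.29 ± 0.43 for Ly6a (0.0481) and 2.45 ± 0.70 for Gsdmc2 (0.0271, all edgeR).

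**Figure D5:**
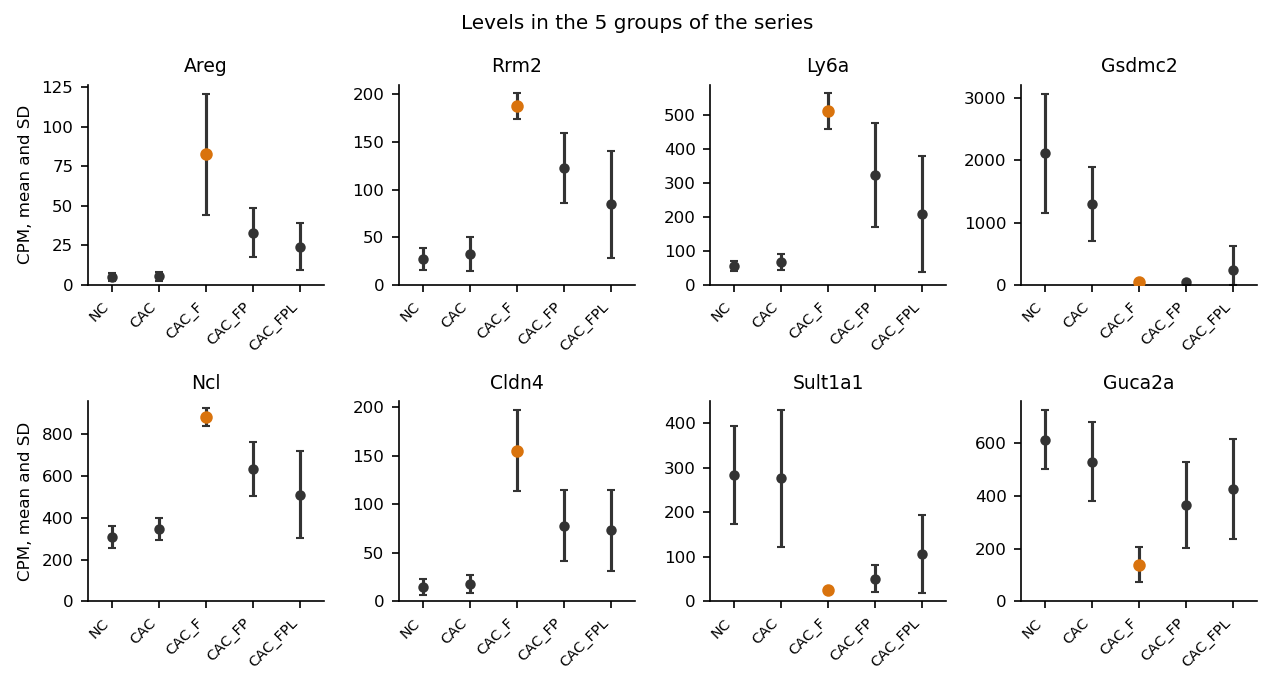
Mean CPM (points) with SD (bars) of 8 genes in the 5 groups of the series, NC (n = 6), CAC, CAC_F and CAC_FP (n = 5 each) and CAC_FPL (n = 6), on linear axes that start at 0. SD bars are drawn no lower than 0. The CAC_F mean is the highest of the 5 for Areg, Rrm2, Ly6a, Ncl and Cldn4 and the lowest for Gsdmc2, Sult1a1 and Guca2a.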

How the data were processed

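Total RNA from tumor-bearing colon was made into stranded poly(A) libraries, per the labels' protocols. The authors deposited 1 table of counts per gene and FPKM values for 27 libraries. Reads were handled with FastQC, HISAT2 and cutadapt 1.9, per the submitters' processing notes. The build, counting tool and strand setting were not given in the sources used here. The counts deposited by the authors are whole numbers and were used unchanged; the FPKM values deposited by the authors served for the filter, for levels per gene length and for 2 alternatives on a log2 scale.

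All 27 libraries entered 1 edgeR 4.0.16 quasi-likelihood fit (R 4.3.3, TMM scaling) of the 15080 genes, with the contrast CAC_F minus CAC and Benjamini-Hochberg adjustment. No column lacked a sample. The labels give each library as a separate sample of its group, and p-values measure the spread between these. Each SE is the log2 fold change divided by the square root of its F statistic. Gene lists are described by counts and medians, without a test. Motifs were searched in RefSeq promoters (GRCm38.p6) matched by symbol. The script was tested on simulated data.

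The comparison, gene lists and rules were chosen with earlier results of these data known. Named genes are the 10 per direction with the smallest adjusted p among those of at least 20 CPM without overlap, the 10 with the largest FPKM difference, the 10 with the largest fold, and from each list its first 4 members and up to 4 called per direction (or 2 by unadjusted p); others are marked. Alternatives were other filters, scaling by median ratios, DESeq2 1.42.0, limma 3.58.1 (voom, and log2 FPKM with 1 or 0.1 added), a fit of 10 libraries, a replicate block, a smooth muscle covariate, and libraries left out. Coordinates of the deposited table were not joined to GRCm38. Some named results are not reported here.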

Additional observations from a re-analysis of the deposited data

Results flagged for a closer look

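In each group of 5 libraries, the highest or lowest value was compared with its nearest neighbour. This was done for every gene whose values are given by library and for the mean log2 CPM of most gene lists discussed. Values whose gap took more than 0.71 of the group's range are given here (Dixon's 95% critical value for 5 samples). Chance flags about 1 in 20 groups, and 30 of 238 were, 17 of them in CAC replicate 2. Genes and lists overlap, so these are not independent.

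In CAC replicate 2 the CPM stood apart for Atg9b at 3.50 (others 0.930 to 1.67), Dpyd at 5.99 (others 33.0 to 41.1), Ncl at 438 (others 310.4 to 327), Cyp2c55 at 104 (others 1253 to 1663), Clca4b at 139 (others 2.37 to 23.6), Cxcl1 at 1.87 (others 0 to 0.250), Cxcl2 at 0.597 (others 0 to 0.150), Ly6g at 92.2 (others 2.26 to 3.27), Cxcr2 at 5.60 (others 0 to 0.305), Selp at 13.4 (others 1.30 to 3.24), Lcn2 at 4.79 (others 1.39 to 2.34), Mmp3 at 21.4 (others 0.667 to 3.45) and Serpina3n at 145 (others 24.2 to 57.8). There the mean log2 CPM stood apart for the anterior gut position list at 3.76 (others 5.85 to 6.16), the mature neutrophil list at 2.37 (others 1.09 to 1.43), the small intestine and Paneth list at 2.07 (others 2.87 to 3.10) and the xenobiotic metabolism list at 4.29 (others 5.68 to 5.92). In CAC replicate 3 the CPM stood apart for Mcpt1 at 243 (others 1.49 to 31.3). In CAC replicate 5 the mean log2 CPM stood apart for the adipocyte list at 4.40 (others 1.44 to 2.00). In CAC_F replicate 1 the CPM stood apart for Ang4 at 92.5 (others 7.69 to 24.4) and Itln1 at 129 (others 0.270 to 32.9). There the mean log2 CPM stood apart for the numbered zinc finger genes list at 3.60 (others 3.82 to 3.90) and the posterior Hox and distal colon list at 2.14 (others 3.11 to 3.48). In CAC_F replicate 2 the CPM stood apart for Mmp3 at 588 (others 7.62 to 100.4). There the mean log2 CPM stood apart for the anterior gut position list at 3.97 (others 5.00 to 5.28) and the macrophage and monocyte list at 5.96 (others 5.02 to 5.25). In CAC_F replicate 3 the mean log2 CPM stood apart for the lipogenesis list at 6.20 (others 5.93 to 6.00) and the p53 targets list at 5.22 (others 5.56 to 5.61). In CAC_F replicate 5 the CPM stood apart for Krt4 at 23.3 (others 3.42 to 7.73). There the mean log2 CPM stood apart for the oxidant-producing enzymes list at 5.32 (others 5.88 to 6.10).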

How the results depend on the processing

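The counts of rising and falling genes were recomputed under 21 alternatives, of which 10 leave out 1 library each. Of the 183 called genes named, 152 kept their call in every alternative that tested them, and none changed direction. A gene under the filter of an alternative was not counted as lost there. Where only genes whose FPKM averaged 5 or more were tested (8186 genes), 1780 fell, 380 rose by at least 2-fold and 420 fell by at least 2-fold, against 3041, 817 and 960, with fewer genes tested. On log2(FPKM + 1) with limma 421 fell by at least 2-fold, a scale that shrinks the fold of low genes. Without CAC_F replicates 1 and 2 together 1726 fell and 623 fell by at least 2-fold, with fewer samples. Leaving out 1 library gave 2353 to 3130 rising and 2384 to 2972 falling genes, 738 to 994 rising and 804 to 1050 falling by at least 2-fold. DESeq2 called 3207 rising and 3104 falling. Of the list counts, 2188 of 2520 stayed within 1.5 times, and counts of 1 or 2 members often moved by 1 or 2.

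Without CAC_F replicates 1 and 2, calls not already given as lost were those of Csf1, named for its motif (adjusted p = 0.429, edgeR, and 0.0878 without CAC_F replicate 1 alone), Bcl2l2 (adjusted p = 0.0594, edgeR), Ddb2 (0.0671), Erbb2 (0.129), Hspa1b (0.0701), Mt1 (0.141), Nfil3 (0.0728) and Slc3a2 (0.0816). With the smooth muscle covariate, those of Atp7a (0.0591), Bbc3 (0.0582), Bcl2l2 (0.116), Fabp2 (0.0931), Gsdmd (0.143), Itln1 (0.0622), Ogn (0.162), Pyy (0.158), Reg3b (0.0782), Slc7a11 (0.262), Sst (0.109) and Tk1 (0.124) were lost too.

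The titles number the libraries of both groups 1 to 5. With the number as a replicate block 2123 genes rose and 2015 fell, 810 and 823 by at least 2-fold. Of the named genes Abcb1b, Cftr, Csf1, Ddb2, Dpyd, Mcpt1, Ptgs2, Tk1, Tyms and Xpc were not called in that fit, and 1 of 23 T cell genes, 5 of 34 histone genes and 52 of 287 zinc finger genes fell. The correlation of the deviations of same-numbered libraries was 0.0152, 0.292, 0.164, 0.121 and 0.146, so the numbers were not taken to pair the libraries. CAC replicates 2, 4 and 5 correlated best with their own number.

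With 5 libraries a group and no measure of cell composition, a change in a cell type's share, its RNA content or its expression cannot be told apart. On simulated counts with 200 of 15080 genes changed, 29.9% of 1.5-fold, 77.6% of 2-fold and 93.9% of 4-fold changes were called. There were 10 false calls among 144. In the data 39.1% of genes were called, which sets another p cutoff, so these shares do not carry over to it. Changes below 2-fold may still be missed.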

Other observations

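Groups not described above also held called genes. Of 22 serine proteases and inhibitors 8 rose (4 with the smooth muscle covariate) and 3 fell. Serpina3n, an inhibitor of the acute phase, was at 24.2, 145, 57.8, 48.4 and 28.9 CPM in CAC and 1294, 2104, 241, 489 and 599 CPM in CAC_F, with every treated library above the untreated ones (3.96 ± 0.90). Klk1, tissue kallikrein, was at 1466, 409, 1169, 1347 and 1624 CPM in CAC and 266, 27.6, 69.6, 218 and 219 CPM in CAC_F, with every treated library below (-2.91 ± 0.59).

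Of 13 amino acid transporters 4 rose (2 without CAC_F replicates 1 and 2) and 1 fell, the latter call lost in 6 of the 10 fits that left out 1 library. Slc7a5, which imports leucine and other large amino acids, was at 34.1, 34.0, 33.3, 24.4 and 19.5 CPM in CAC and 98.9, 83.3, 56.0, 66.6 and 69.4 CPM in CAC_F (1.36 ± 0.26), and its partner Slc3a2 rose by 0.65 ± 0.17. Among 14 genes of lipogenesis 2 rose, such as Dgat2 of triglyceride synthesis (1.02 ± 0.32), and 2 fell (1 without CAC replicate 2, 3 or 5 or any 1 CAC_F library), such as the acetyl-CoA synthetase Acss2 (-1.38 ± 0.28). These are 14.3% each, below the 19.0% and 20.2% of all genes.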
